A study of Arabidopsis thaliana with 6 samples.

Results

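A set of 33 nuclear genes of Arabidopsis thaliana was at 30 RPKM or more in both seedling and both floral bud libraries and under 0.5 RPKM in both root libraries, out of 28775 features in the deposited files. RPKM is a read count scaled to the length of the gene model and to the mapped reads of the library. Polyadenylated RNA was sequenced from plants of the natural accessions Col-0 and Can-0, with 1 library for each accession and tissue and thus no replicate of any group. The tissues were 11-day-old seedlings and stage 12 floral buds from soil, and 10-day-old roots from plates, all under 16 hours of light and 8 hours of dark at 20 C. Root therefore cannot be told apart from growth on plates, and each tissue was sequenced in runs of its own. The accessions shared a run in seedling (33) and in root (40) but lay in different lanes of it. Col-0 bud was sequenced in run 36 and Can-0 bud in run 35. Accession therefore cannot be told apart from lane in seedling and root, nor from run and lane in bud. The labels do not say whether whole seedlings with their roots were taken, and seedlings and buds are mixtures of cell types, in which fewer cells of a type and less RNA per cell cannot be told apart.

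Many of the 33 genes are known for photosynthesis and the metabolism around it. Light-harvesting proteins bind chlorophyll and pass energy to the photosystems, Rubisco fixes CO2 in the Calvin-Benson cycle, carbonic anhydrases interconvert CO2 and bicarbonate, and the plastid NDH complex carries electrons around photosystem I. These nuclear genes are known to be driven by light and plastid state in green cells, and their promoters are known for G-box and I-box elements. Others make or sense jasmonate, break down glucosinolates, protect against cold, or loosen and coat the cell wall of the shoot.

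A gene for the small subunit of Rubisco, RBCS3B, had the highest level of the set, and 3 of the 4 RBCS genes were among the 33. They are neighbours on the minus strand of chromosome 5, and their start regions are shown because the genes share both the root pattern and their sequence. The 250 bases before the annotated start of RBCS2B (AT5G38420) follow, at chr5:15382072-15382321 on the minus strand of TAIR10.1, from the RefSeq genome and written 5′ to 3′. Capitals mark the G-box CACGTG and the I-box GATAAG, on either strand.
RBCS2B: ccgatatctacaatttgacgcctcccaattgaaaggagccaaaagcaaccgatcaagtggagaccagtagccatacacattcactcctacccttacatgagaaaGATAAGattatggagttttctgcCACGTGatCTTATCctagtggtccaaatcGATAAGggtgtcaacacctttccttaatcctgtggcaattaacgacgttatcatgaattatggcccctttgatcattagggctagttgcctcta
Around the G-box of the other genes that hold one, and around the I-boxes of RBCS1B and CA1, stretches of 30 bases are given with the same capitals.
RBCS3B: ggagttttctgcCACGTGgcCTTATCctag
RBCS2B: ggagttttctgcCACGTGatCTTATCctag
LHCB2.3: acatatcttctaCACGTGaatctagtttgt
TIFY7: caaaagaataaaCACGTGtgaattaaccgg
AT2G10940: agcccccatcttCACGTGaattcttcttct
RBCS1B: aaagaaaGATAAGATAAGggtgtcaacacc
CA1: ttttcatGATAAGggacCTTATCctctaaa
These lie at chr5:15378506-15378535, chr5:15382177-15382206, chr3:10255806-10255835, chr1:26654654-26654683, chr2:4312097-4312126, chr5:15385303-15385332 and chr3:198193-198222, with LHCB2.3 and TIFY7 on the plus strand and the others on the minus strand. Those of RBCS3B, TIFY7, AT2G10940 and CA1 lie inside the annotated gene and that of RBCS1B partly inside, so they are upstream only of the transcript start used in the motif search.

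Motifs were searched from 250 bases before to 50 after the start of the transcript that begins closest to the start codon. The G-box was in 5 of 33 windows (15.2%), against 11.4% of 2849 other genes at 30 RPKM or more in all 4 shoot libraries and 7.80% of 26709 windows in all. The I-box was in 9 windows (27.3%), against 18.5% and 14.9%. RBCS3B and RBCS2B were the 2 genes that held both motifs, and 21 of the 33 held neither. For GGTTAA, known as the GT1 box, the shares were 21.2%, 18.04% and 16.6%. AAAATATCT, the evening element, was in 6.06%, 4.46% and 2.78%. TATAAA on the gene's strand was in 45.5%, 35.3% and 36.7%, and CCAAT in 57.6%, 57.7% and 51.3%. GGCCCA, the core of the site II element known from genes of growing cells, was in 3 of 33 windows (9.09%), against 29.4% of the other shoot genes and 15.3% of all. These shares describe letters in windows and were not tested.

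Depth was estimated from the steps between small RPKM values as 21600000 to 22700000 mapped reads a library. In a 1 kb gene 1 read is then worth 0.0441 to 0.0463 RPKM, and a count of 0 allows up to 0.132 to 0.139 RPKM, for counting error only. The root marker genes CASP1, PRP3, IRT1, COBL9, PIN2 and CYP86A1 summed to 298 and 329 RPKM in the roots of Col-0 and Can-0 and to 1.495 and 0.908 in the seedlings. In the buds they summed to 17.1 and 27.5 RPKM, most of it from IRT1 at 16.3 and 26.6. The 5 floral organ and the 5 pollen markers were each at over 30 RPKM in both buds and under 3 in every other library. Green transcripts were present in both roots and higher in that of Col-0, where 12 photosystem I genes summed to 147 RPKM, against 66.7 in Can-0 and 21661 and 19002 in the seedlings. None of those 12 is among the 33 genes, and what part green cells in the root samples had in their root values was not tested.

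The 33 genes made up 2.56% of all RPKM in Col-0 seedling and 1.84% in Can-0 seedling. In floral bud they held 1.15% and 0.946%. In root they summed to 3.05 RPKM in Col-0 and 1.98 in Can-0, about 100.2 and 62.3 estimated reads in all. A total of 8 genes were listed at 0 in both roots, among them RBCS2B, CA1, COR15B and CLH1, and 12 were above 0 in both. The set was chosen on these values, so shoot against root is a description and was not tested.

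**Figure D1:**
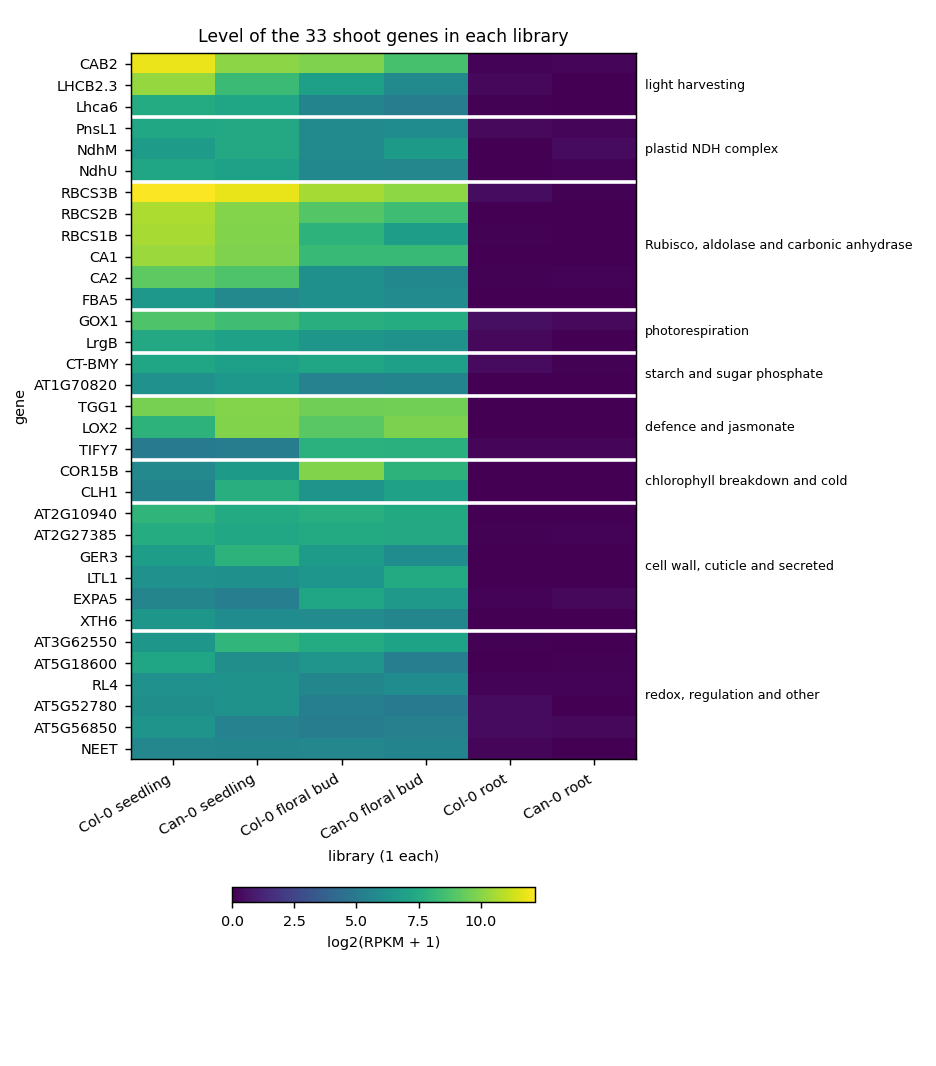
Level of each of the 33 genes as log2(RPKM + 1), by colour, in each of the 6 libraries (columns), with genes in rows grouped by role. Every gene is bright in the 4 shoot libraries, at 31.7 RPKM or more, and dark in both roots, at 0.401 RPKM or less, and within the shoot the light-harvesting and RBCS rows are brighter in seedling than in bud of the same accession.

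Near the limits of the rule, the highest root values inside were those of GOX1 (0.401 RPKM), RBCS3B (0.309) and AT5G52780 (0.293). Just outside lay AT2G29360 at 0.524, NdhO at 0.560 and PTAC16 at 0.587 in their higher root. The lowest shoot values inside were 31.7 RPKM for AT5G52780, 32.2 for TIFY7 and 33.5 for AT5G56850, and just outside were AT2G03550 at 29.8, ELI3-1 at 29.3 and FKBP13 at 28.6. Of 2884 genes at 30 RPKM or more in all 4 shoot libraries, 33 (1.14%) met the root limit. The higher root value was from 0.5 to 1 RPKM for 19 genes, from 1 to 5 for 104, from 5 to 30 for 539 and 30 or more for 2189.

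Floral bud was set against seedling, a contrast the rule did not use beyond asking for 30 RPKM in both. Of the 33 genes 15 fell in bud, against 12.0% of all 20830 genes tested, and 3 rose, against 32.8%. Among the other shoot genes 22.7% fell and 22.1% rose. The median difference on log2(RPKM + 1) was -0.80 over the 33 genes, 0.07 over the other shoot genes and 0.27 over all tested genes. In 20 genes both seedlings lay above both buds, in 4 both buds lay above both seedlings, and in 9 the tissues overlapped. That split was not counted over all genes, so it describes the 33 only. Calls are from limma with tissue and accession as terms, at a Benjamini-Hochberg adjusted p under 0.05, and with 1 library a group the error is how far the tissue differences differ between accessions (2 residual degrees of freedom). Both roots enter that error, and the rule holds them near 0 for every one of the 33. In the fit on the 4 shoot libraries alone 16 fell and 3 rose, with AT5G18600 (adjusted p = 0.0106) added to those that fell. The number that fell was 24 after centring each library on its median, which moved the median of all genes by -0.48, and 8 or 9 without the Can-0 or the Col-0 floral bud library. With that centring 3385 of all tested genes rose and 5522 fell, and with quantile normalization 3730 and 5250, against 6837 and 2499 in the values as deposited.

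**Figure D2:**
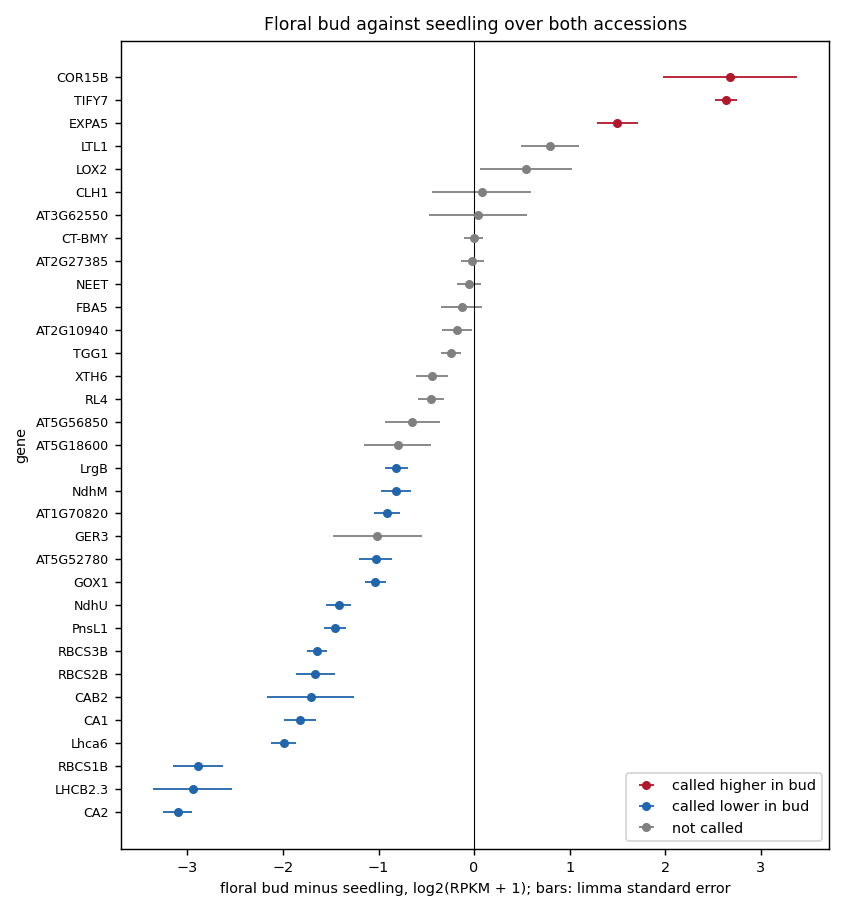
Floral bud minus seedling for each of the 33 genes (rows) on the log2(RPKM + 1) scale, with the limma standard error as bars, red for genes called higher in bud, blue for genes called lower and grey for genes not called. The blue points run from CA2 at -3.10 to LrgB at -0.81, and the red points are EXPA5, TIFY7 and COR15B, from 1.497 to 2.68.

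The 3 light-harvesting genes all fell in bud, against 12.0% of all tested genes. CAB2 (AT1G29920, LHCB1.1), a trimeric antenna protein of photosystem II, was at 3659 RPKM in Col-0 seedling and 1077 in Can-0 seedling, 930.4 and 394 in the buds and 0.0751 and 0.149 in the roots. The Can-0 seedling thus came close to the Col-0 bud, and CAB2 fell by 1.71 (SE 0.46, adjusted p = 0.0390), with the largest error of the group. LHCB2.3 (AT3G27690), of the mobile antenna that moves between the photosystems, was at 1236 and 317 RPKM in seedling against 116 and 56.0 in bud, and fell by 2.94 (SE 0.41, adjusted p = 0.00684). Lhca6 (AT1G19150), which is known to join photosystem I to the NDH complex, was at 179.7 and 141 RPKM in seedling, with 43.9 and 35.3 in bud. Its ratio of seedling to bud was nearly equal in the accessions, 4.09 and 4.01, and it fell by 1.99 (SE 0.13, adjusted p = 0.000967).

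CAB2 has close copies, so its reads may have been shared: CAB1 matches it at 96.1% over 62.6% of the transcript, and the protein of CAB3 is identical to it. Within the sum of CAB1, CAB2 and CAB3, CAB2 held 26.9% in Col-0 seedling and 11.0% in Can-0 seedling, while CAB3 was at 3562 and 3873 RPKM. The sum itself was 13602 and 9764 RPKM. LHCB2.3 held 31.8% of the sum of the LHCB2 genes in Col-0 seedling and 13.8% in Can-0 seedling. It also overlaps AT3G27700 on the other strand over 595 bases, but that gene was at 8.06 to 12.7 RPKM in every library, roots included. Whether the authors' counting used strand is not given in the sources used here.

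The NDH complex gave PnsL1, a subunit on the lumen side, NdhM, of the part that docks in the stroma, and NdhU, of the part near the electron donor. PnsL1 was at 156 and 163 RPKM in the seedlings of Col-0 and Can-0 and 55.8 and 59.2 in the buds, and it fell by 1.45 (SE 0.11, adjusted p = 0.00156). NdhU was at 143 and 125 RPKM in seedling against 50.3 and 48.8 in bud, and it fell by 1.41 (SE 0.13, adjusted p = 0.00231). NdhM stood at 103 and 162 RPKM in seedling, with 53.5 and 99.2 in bud, so that the Can-0 bud nearly met the Col-0 seedling, and it fell by 0.82 (SE 0.16, adjusted p = 0.0165). Of 17 nuclear genes for NDH subunits 14 fell in bud and none rose, against 12.0% and 32.8% of all tested genes. A total of 8 of the 17 were under 0.5 RPKM in both roots, against 30.3% of all nuclear genes. The 5 of these 8 outside the set, PnsB3, PnsL3, NdhL, NdhN and NdhT, had a shoot library under 30. PnsL5, an isomerase-like subunit, was the highest of the list in root, at 47.1 and 65.1 RPKM.

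Of the 6 genes for Rubisco, carbonic anhydrase and aldolase 5 fell in bud, against 12.0% of all tested genes. RBCS3B (AT5G38410) was at 4472 RPKM in Col-0 seedling, 3568 in Can-0 seedling, 1486 and 1100.3 in the buds, and 0.309 and 0.0437 in the roots. RBCS2B was at 1666 and 992 RPKM in seedling against 484 and 341 in bud, and RBCS1B (AT5G38430) at 1569 and 938 in seedling and 239 and 111 in bud. Both seedlings lay above both buds for each of the 3 genes, and RBCS1B fell by 2.89 (SE 0.26, adjusted p = 0.00216). RBCS3B fell by 1.64 (SE 0.11, adjusted p = 0.000944) and RBCS2B fell by 1.66 (SE 0.20, adjusted p = 0.00469). Whether RBCS1B fell further than its neighbours was not tested. By quantile normalization, which gives every library the same distribution of values, RBCS3B fell by 0.14 (adjusted p = 0.365).

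The fourth gene of the family, RBCS1A (AT1G67090), was at 7131 and 6323 RPKM in seedling and at 14.1 and 2.26 in root. The 3 genes of the set held 51.9% of the RBCS sum in Col-0 seedling, 46.5% in Can-0 seedling, 46.6% and 43.5% in bud, and 2.51% and 1.90% of the small sum in root. Their proteins are close, with RBCS2B and RBCS1B identical at 97.8% of positions, RBCS3B at 94.1% to each, and RBCS1A at 89.1% to 93.3% to the other three. Transcript identity between them was 87.9% to 93.1%, which leaves some reads that fit more than 1 gene.

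CA1 (AT3G01500) and CA2 (AT5G14740), both carbonic anhydrases, fell in bud. CA1 was at 1304 and 915 RPKM in seedling, 311 and 305 in bud and 0 in both roots, and it fell by 1.82 (SE 0.17, adjusted p = 0.00217). CA2 was at 583 and 465 RPKM in seedling, with 69.8 and 51.2 in bud, and it fell by 3.10 (SE 0.15, adjusted p = 0.000493), the lowest estimate of the 33. The aldolase FBA5 was at 90.5 and 53.0 RPKM in seedling against 68.2 and 58.5 in bud, with overlapping tissues and no call. Of 23 carbon fixation genes, 5 of them in the set, 20 fell and none rose, against 12.0% and 32.8% of all tested genes.

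Photorespiration recovers the carbon of glycolate, a product of Rubisco's reaction with oxygen. GOX1 (AT3G14420), a glycolate oxidase of the peroxisome, was at 451 and 352 RPKM in seedling, with 205 and 184 in bud, and it fell by 1.03 (SE 0.11, adjusted p = 0.00318). LrgB (AT1G32080), known as the plastid glycolate and glycerate transporter, was at 165 and 125 RPKM in seedling against 86.3 and 76.8 in bud, and it fell by 0.81 (SE 0.12, adjusted p = 0.00721). Of 17 photorespiration genes 16 were tested, 13 fell and none rose, against 12.0% and 32.8% of all tested genes. CT-BMY (AT4G17090), the chloroplast beta-amylase that frees maltose from starch, had similar values in both shoot tissues, at 147 and 119 RPKM in seedling, with 149.996 and 116 in bud (95% interval of the difference -0.28 to 0.27), but fell by 0.49 after median-centring (adjusted p = 0.0259). AT1G70820, annotated as a putative phosphoglucomutase, was at 72.1 and 90.0 RPKM in seedling against 41.1 and 43.7 in bud, and it fell by 0.91 (SE 0.13, adjusted p = 0.00767).

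The calls on Lhca6, PnsL1, NdhU, CA1, CA2, GOX1 and RBCS1B, and on TIFY7 described next, held in all 15 other fits, while CAB2 and NdhM were called in 9 of the 15, AT5G52780 in 11, and LHCB2.3 and LrgB in 12. Leaving out either the Can-0 or the Col-0 floral bud library ended those on CAB2, LHCB2.3, NdhM, LrgB, AT1G70820 and AT5G52780, whose highest adjusted p over the other fits were 0.195, 0.0593, 0.124, 0.142, 0.0778 and 0.193, and without the Can-0 floral bud library RBCS2B reached 0.0514. CAB2 was also not called with quantile normalization, where it fell by 0.89 (adjusted p = 0.124), nor without the filter, with a pseudocount of 0.1 or without the Col-0 seedling library.

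Of the 5 genes of defence, jasmonate, chlorophyll breakdown and cold 2 rose in bud and none fell. Over all tested genes 32.8% rose and 12.0% fell. TIFY7 (AT1G70700, JAZ9), a repressor of jasmonate responses, was at 32.2 and 35.4 RPKM in seedling, with 219 and 213 in bud, and rose by 2.64 (SE 0.11, adjusted p = 0.000355). The accessions were nearly equal, with buds 6.79-fold and 6.01-fold above seedlings. LOX2 (AT3G45140), the chloroplast lipoxygenase that starts jasmonate synthesis, was at 234 and 960 RPKM in seedling against 531 and 901 in bud. Its levels followed the accession more than the tissue, and bud and seedling overlapped. TGG1 (AT5G26000), the myrosinase that cleaves glucosinolates, was at 841 and 974 RPKM in seedling, with 744 and 785 in bud (95% interval of the difference -0.52 to 0.04), and its direction depended on the scaling. It fell by 0.73 after median-centring (adjusted p = 0.00697) and rose by 0.36 under quantile normalization (adjusted p = 0.0401).

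COR15B (AT2G42530), a stromal protein that protects membranes in freezing, was at 52.4 and 98.6 RPKM in seedling against 933 and 233 in bud, and 0 in both roots. The rise in bud was 17.8-fold in Col-0 and 2.36-fold in Can-0, and its mean of 2.68 carried a large error (SE 0.70, adjusted p = 0.0365). The call was lost after median-centring (adjusted p = 0.0610), without the filter on low values (0.151), without the Col-0 floral bud library (0.0758) and without the Col-0 seedling library (0.115). Its paralogue COR15A was at 28.6 and 85.8 RPKM in seedling, with 1082 and 377 in bud. COR15B also overlaps AT2G42520 on the other strand over 468 bases, a gene at 14.2 to 21.5 RPKM in every library. CLH1 (AT1G19670), a chlorophyllase, was at 44.6 and 198.5 RPKM in seedling, with 78.4 and 127 in bud, with no call.

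Of 6 wall and surface genes 1 rose in bud and none fell, against 32.8% and 12.0% of all tested genes. EXPA5 (AT3G29030), an expansin that loosens walls, was at 45.6 and 36.4 RPKM in seedling against 147 and 92.7 in bud, and rose by 1.497 (SE 0.21, adjusted p = 0.00717). Without the Col-0 floral bud library its adjusted p was 0.0556. LTL1, a GDSL-type lipase, was at 70.9 and 68.1 RPKM in seedling, with 85.2 and 172 in bud (adjusted p = 0.0929). The germin-like GER3 (AT5G20630) was at 110.5 and 239 RPKM in seedling against 107 and 60.1 in bud (adjusted p = 0.144), and XTH6, which cuts and rejoins xyloglucan, ran from 86.8 and 59.1 to 58.0 and 47.6. AT2G10940, of a lipid-transfer superfamily, and AT2G27385, of an extensin-related family, lay between 158 and 249 RPKM in the 4 shoot libraries. These 2 genes were called lower in bud only after median-centring, and XTH6 after median-centring or quantile normalization. Of 15 cuticle and lipid transfer genes, none of them in the set, 12 rose in bud and 1 fell.

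Among the remaining genes AT5G52780, a putative membrane protein, fell by 1.03 (SE 0.17, adjusted p = 0.0110), from 67.0 and 75.2 RPKM to 37.0 and 31.7. The iron-sulfur protein NEET was at 48.7 and 47.5 RPKM in seedling, with 48.6 and 44.0 in bud, but fell by 0.54 after median-centring (adjusted p = 0.0232). The other 4, AT3G62550, AT5G18600, AT5G56850 and the MYB-related RL4, ran from 33.5 to 263 RPKM and were not called. In Can-0 against Col-0, AT5G18600, of the thioredoxin superfamily, kept a ratio of 0.453 in seedling and 0.452 in bud.

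The accessions were then compared over the 4 shoot libraries, with tissue in the model. No gene of the set was called by limma, against 0.296% of 19274 genes called higher in Can-0 and 0.332% called lower, and 12 of the 33 had an unadjusted p under 0.05, against 15.6% of all tested genes. This fit has 1 residual degree of freedom. The median difference was -0.27 over the 33 genes and 0.04 over all tested genes, with 19 genes lower in Can-0 in both tissues, 7 higher in both and 7 in opposite directions. That split of directions was not counted over all genes, and similar copies among the 33, such as the RBCS genes, may share reads. How reads of Can-0 were matched to the gene models is not given in the sources used here. What part that matching had in the accession differences was not tested. Nearest to a call were AT5G18600 at -1.13 (SE 0.12, adjusted p = 0.0601) and CAB2 at -1.4997 (SE 0.20, adjusted p = 0.0879). LHCB2.3 at -1.498 (SE 0.26), RBCS1B at -0.92 (SE 0.16) and RBCS2B at -0.63 (SE 0.16) were the next lower in Can-0. On the other side stood CLH1 at 1.41 (SE 0.38), LOX2 at 1.396 (SE 0.34), NdhM at 0.76 (SE 0.13), AT3G62550 at 0.58 (SE 0.51) and LTL1 at 0.47 (SE 0.29). None of these passed the test.

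Within a tissue there is no replicate, so differences of at least 1 on log2(RPKM + 1) were counted. In seedling 4 of the 33 genes (12.1%) were that much higher in Can-0, against 4.78% of all genes and 1.54% of the other shoot genes. They were CLH1, at 4.45 times Col-0, LOX2 at 4.101, AT3G62550 at 3.02 and GER3 at 2.17. A further 3 (9.09%) were lower, against 4.23% of all genes and 1.05% of the other shoot genes. These were LHCB2.3, CAB2 and AT5G18600, at 0.257, 0.294 and 0.453 of Col-0. In floral bud LTL1 alone (3.03%) was higher, at 2.02 times, against 3.87% of all genes and 0.316% of the other shoot genes. After median-centring LTL1 too was under the limit. COR15B, CAB2, RBCS1B, LHCB2.3 and AT5G18600 (15.2%) were lower in bud, against 3.63% of all genes and 1.09% of the other shoot genes. COR15B was lowest, at 0.250 of Col-0.

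**Figure D3:**
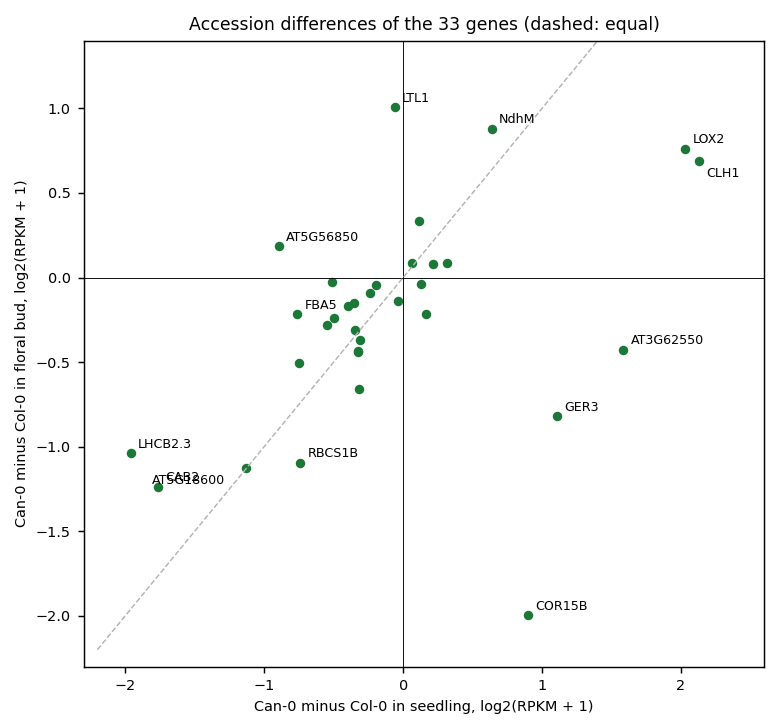
Can-0 minus Col-0 for each of the 33 genes in seedling (x axis) and in floral bud (y axis), both on the log2(RPKM + 1) scale, with 1 library for each value and the dashed line where both are equal. CAB2, LHCB2.3 and AT5G18600 are lower left, LOX2 and CLH1 upper right, and COR15B, GER3 and AT3G62550 lie lower right, higher in Can-0 seedling and lower in Can-0 bud.

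Set against whole pathways, genes of the set were a minority of the genes in each green list. Membership also asked for 30 RPKM in every shoot library, which only 2 of the 10 greening regulators reached. The root limit alone was met by 8 of 17 NDH genes, 4 of 21 antenna genes and 3 of the 10 regulators, but by none of 12 photosystem I genes. Among all nuclear genes 30.3% met it. The regulators that met it include COL1, which was at 0.186 RPKM or less in every library, shoot included. None of 12 photosystem I, 12 photosystem II, 13 electron transfer and ATP synthase, 20 chlorophyll synthesis and 15 thylakoid genes was in the set, and the same holds for 10 greening regulators. Antenna genes gave 3 of 21, carbon fixation 5 of 23, photorespiration 2 of 17 and the NDH list 3 of 17. In bud 12 photosystem I, 11 photosystem II, 18 antenna, 12 electron transfer, 18 chlorophyll and 11 thylakoid genes fell, and 1 antenna and 2 thylakoid genes rose, the last being the light-stress proteins ELIP1 and ELIP2. Among genes of these lists at 30 RPKM or more in the shoot, the median of the higher root value was 10.6 RPKM for photosystem I. It was 16.3 for photosystem II, 13.6 for chlorophyll synthesis and 0.715 for the NDH list. Shoot levels differed as well, with Col-0 seedling medians over each whole list of 1632, 1284, 196 and 94.9 RPKM in that order. Root level relative to shoot level was not compared. Of the greening regulators 1 rose and 5 fell. Of 12 glucosinolate breakdown genes, 1 of them TGG1, 2 rose and 3 fell, and of 9 jasmonate genes, 1 of them LOX2, 3 rose and 3 fell. The shares over all tested genes were 32.8% that rose and 12.0% that fell.

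**Figure D4:**
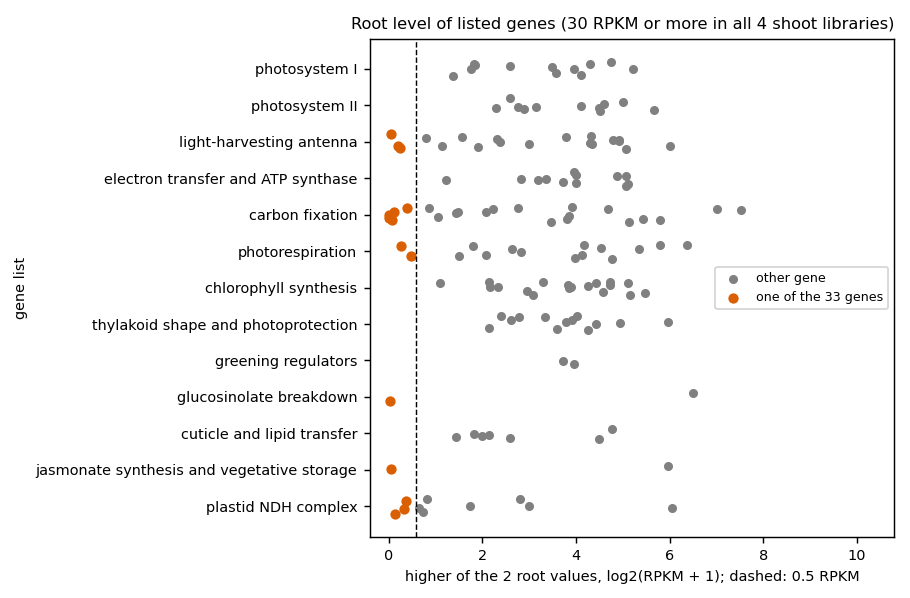
Higher of both root values, as log2(RPKM + 1) on the x axis, for the genes of each list (rows) that reached 30 RPKM in all 4 shoot libraries, orange for the 33 genes and grey for the others, with the dashed line at 0.5 RPKM. Photosystem and chlorophyll synthesis genes all lie to the right of the line, and several NDH genes lie close to it.

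Of the 33 genes 7 have a nearest paralogue that reached 0.5 RPKM in both roots. Only the nearest was counted. The RBCS genes of the set are therefore not among the 7, although RBCS1A was at 14.1 and 2.26 RPKM in root. A nearest paralogue, with at least 50% protein identity over at least 70% of both proteins, was found for 18 of the 33 (54.5%, against 57.5% of the other shoot genes). In 11 of the 18 (61.1%) the paralogue was under 0.5 RPKM in both roots too, against 5.18% of the 1640 other shoot genes that have a paralogue. Of these 11 genes 5 have a paralogue inside the set, which the rule placed there, so the 61.1% is partly fixed by the rule. Among all nuclear genes 30.3% were under 0.5 RPKM in both roots. For the other 7 of the 18 the paralogue reached 0.5 RPKM in both roots. EXPA5 was at 0.103 and 0.203 RPKM in root, where its paralogue EXPA15 was at 84.1 and 68.3. CT-BMY was at 0.260 and 0.0429 RPKM, and BAM1, a beta-amylase at 60.3% identity, at 40.01 and 25.1. GOX1 was at 0.401 and 0.223, with GOX2, identical at 93.6% of positions and its neighbour on chromosome 3, at 10.9 and 14.8. In the shoot GOX1 and GOX2 were close, at 451 and 393 RPKM in Col-0 seedling. XTH6 was at 0 in both roots beside XTH7 at 25.8 and 2.11, and Lhca6 at 0.0423 and 0 beside LHCA2 at 12.9 and 2.96.

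**Figure D5:**
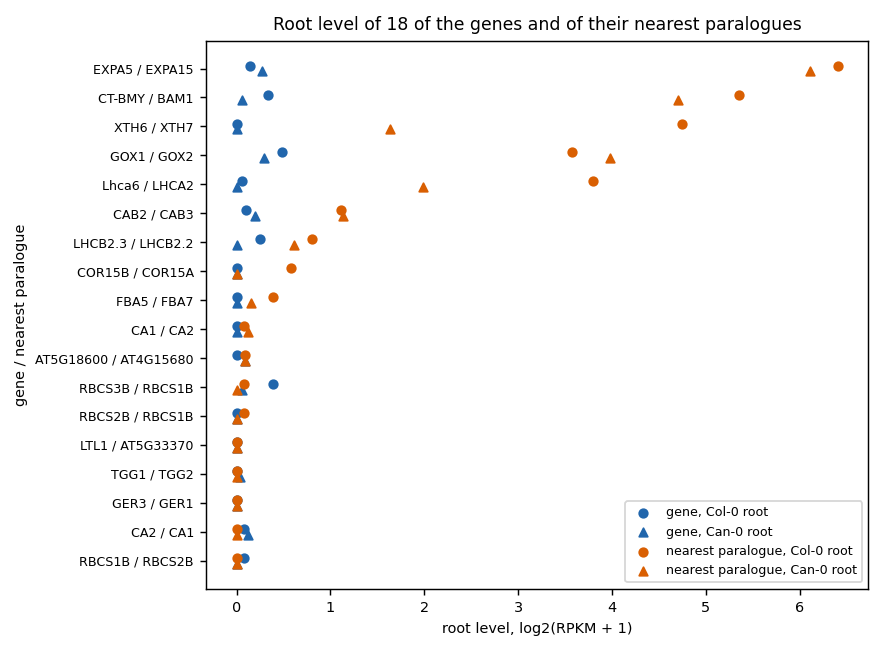
Root level as log2(RPKM + 1) of 18 of the genes (blue) and of the nearest paralogue of each (orange), circles for Col-0 root and triangles for Can-0 root, ordered by the paralogue's mean. The upper 5 paralogues, from EXPA15 to LHCA2, lie far right of their genes, and the 9 lowest pairs lie together near 0.

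TGG1 and TGG2 both lay near 0 in root, but TGG2 also differed by accession in the shoot, at 326 and 1.87 RPKM in the seedlings of Col-0 and Can-0 and 1207 and 6.76 in the buds, while TGG1 stayed between 744 and 974. The myrosinases TGG4 and TGG5 showed the reverse tissue pattern, at 43.2 and 38.2 RPKM in Col-0 root and 46.6 and 64.0 in Can-0 root, against 0.132 or less in every shoot library.

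In gene structure the 33 had a median of 3 exons, against 5 in the other shoot genes and 4 over all nuclear coding genes, and 6 of them (18.2%) were single-exon genes, against 8.39% and 20.4%. The median protein was 270 residues, against 305 and 354. Chromosome 5 held 12 of the 33, against 23.0% of all nuclear genes, and 2 pairs of the 33, both among the RBCS genes, were neighbouring coding genes.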

How the data were processed

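The authors deposited RPKM values per gene for each library, per the file headers, and the submitters' processing notes name the builds TAIR9 and TAIR10 with no role. Not given in the sources used here are the aligner, the counting, the use of strand and the handling of reads that match several genes. Libraries were made from fragmented mRNA with an adapted small RNA protocol, per the labels' protocols. Sequences, symbols, exons and coordinates come from RefSeq on TAIR10.1, in which 28009 of 28775 features matched.

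Tests ran over all genes on log2(RPKM + 1) with limma 3.58.1 in R 4.3.3 (two-sided, empirical Bayes with trend), for genes that reached 1 RPKM in 2 or more of the libraries in the fit, and the script was tested on simulated data. A fold change on this scale understates that of low genes. With 1 library a group, p-values rest on how far the accessions or tissues differ from an additive model. Paralogues and similar transcripts came from BLAST+ 2.17.0. Depth was estimated from the spacing of low values, since no counts are given.

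The genes and lists were chosen with earlier results of these data known, and the NDH list and the role groups after the values of the 33 genes had been seen. Genes named are those with the highest shoot levels, the largest differences in each comparison, the values nearest each limit and the paralogues highest in root, the rest being named to cover the set. Alternatives were other pseudocounts, filters, scalings, limma options and sets of libraries.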

Additional observations from a re-analysis of the deposited data

Results flagged for a closer look

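The accession difference of COR15B and GER3 went in opposite directions in the shoot tissues, by at least 0.5 on log2(RPKM + 1) in each, a limit set with the values in view. COR15B was higher in Can-0 seedling by 0.90 and lower in Can-0 bud (-1.996), so that its difference in bud minus that in seedling was -2.89. GER3 was higher in Can-0 seedling by 1.11 and lower in Can-0 bud (-0.82), a gap of -1.93. Each value rests on 1 library, and neither gap was tested.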

How the results depend on the processing

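The number of the 33 genes that fell in bud was 24 with median-centred libraries and 8 to 16 on leaving out each library in turn, and the number that rose was 2 to 5, with 5 reached without the Can-0 seedling library, when LOX2 and AT3G62550 were called too. Over the other 9 fits the counts stayed within 1.5 times. Median-centring added 9 calls, all lower in bud, on AT2G10940, AT2G27385, RL4, CT-BMY, AT5G18600, TGG1, NEET, AT5G56850 and XTH6. The count of genes at least 2-fold higher in Can-0 bud was 0 with median-centring. No accession call arose in any alternative. None of the 18 genes called between bud and seedling changed sign in any of these fits, but some of the others did. CLH1 was at -0.41 median-centred, -0.033 with quantile normalization, and from -0.81 to 0.97 over the fits without 1 library, with -0.11 without the Col-0 bud. AT3G62550 was at -0.45 median-centred and from -0.88 (adjusted p = 0.0360) to 0.96 without 1 library, with -0.55 without the Col-0 bud. Leaving out the Can-0 and the Col-0 seedling library set the ends of the range for both, and for LOX2 (1.36 and -0.27), AT2G10940 (-0.37 and 0.0097), AT2G27385 (-0.13 and 0.088), FBA5 (-0.46 and 0.20) and NEET (0.021 and -0.13). CT-BMY ran from -0.045 without the Col-0 bud to 0.034 without the Can-0 bud, with 0.00018 without the Can-0 seedling library, and TGG1 was at 0.36 with quantile normalization. The accession difference of TIFY7 was -0.00056 median-centred. Causes were not tested. No paired analysis was possible because the groups share only replicate 1, but the bud fit holds accession as a term and so already compares tissues within accessions. Leaving out a library from the accession fit leaves no residual degrees of freedom. Depth limits the roots, where most of the 33 genes rest on fewer than 10 estimated reads.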
